A study of Mus musculus with 5 samples.

Results

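The genes described here are the histone genes of B16F10 cells, a pigmented mouse melanoma line. They were chosen as the protein-coding genes of the deposited table whose symbols start with Hist1h, Hist2h, Hist3h, Hist4h, H1f, H2af or H3f3. This gave 82 genes of the 54699 in the table. The rule itself uses no measured value, but the members were chosen with earlier results of these data known. By symbol, 67 of the 82 belong to the 4 histone gene clusters and 15 are replacement histone genes. Position did not enter this division, and H2afj, counted as replacement, lies near Hist4h4 on chromosome 6. The clustered genes comprised 6 of class H1, 18 of H2A, 18 of H2B, 12 of H3 and 13 of H4. By cluster, 54 belonged to Hist1 on chromosome 13, 10 to Hist2 on chromosome 3, 2 to Hist3 on chromosome 11 and 1 to Hist4 on chromosome 6.

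RNA was sequenced from 5 cultures, each infected with lentivirus and each the only library of its group. A first library came from cells with forced expression of Myod1, the transcription factor that directs skeletal muscle identity, and another from cells with forced expression of Pparg, the nuclear receptor that directs fat cell identity. Their common control carried the empty expression vector, and these 3 cultures were collected on day 8. Cells with a short hairpin RNA against Setdb1, a methyltransferase that acts on histone H3, were collected on day 7 beside cells with the empty knockdown vector. Both controls are labelled wild type, and the promoters of the vectors are not given in the sources used here. With 1 library per group there is no replicate check and no test between conditions. Intervals below come from read counts and cover counting error only. In these bulk samples fewer cells with a transcript and less of it per cell cannot be told apart.

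Clustered histone genes are known as the replication-dependent ones: they are transcribed mainly in S phase, and most of their mRNAs end in a conserved stem-loop, bound by the stem-loop binding protein, in place of a poly(A) tail. Core histones H2A, H2B, H3 and H4 form the nucleosome, and linker histone H1 binds the DNA between nucleosomes. Replacement histones have polyadenylated mRNAs, are made throughout the cell cycle and can take the place of the clustered forms in cells that no longer divide. Some clustered genes can also give polyadenylated mRNAs that run past the stem-loop.

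In short, the clustered genes as a group had a higher summed level in each of the 3 treated libraries than in either control, and the Setdb1 knockdown library had the highest sum. With Myod1 the sum without Hist1h1c, Hist1h2bc and Hist1h4h was 1.05 times that of its control by FPKM and 1.43 times by reads. The linker histone gene Hist1h1c and the H2B gene Hist1h2bc made up most of the clustered sum in every library but the expression vector control. The replacement genes, which made up most of the summed histone FPKM in every library, had sums from 0.711 to 0.966 of their controls. By share of reads, however, the Setdb1 knockdown library (0.178%) was above its control (0.174%). Individual variants moved in different directions.

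The libraries held between 16214802 reads (empty knockdown vector) and 18300670 reads (Myod1 expression) assigned to genes, recovered from the deposited FPKM (fragments per kilobase, divided by a factor for each library that was 0.859 to 1.10 times these reads). Myod1 stood at 260 FPKM in its own library and Pparg at 44.4 FPKM in its own, and each had 0 reads in the other 4. Setdb1 stood at 0.872 FPKM after knockdown and 9.82 in its control. The 10 melanocyte markers had reads in all 5 libraries, with a summed level of 7848 FPKM (empty expression vector) and 8585 (empty knockdown vector) in the controls, 3332 with Myod1, 2320 with Pparg and 9147 with Setdb1 knockdown. The 8 skeletal muscle markers summed to 25618 FPKM with Myod1 and to at most 15.6 elsewhere, and the 8 adipocyte markers to 338 FPKM with Pparg and at most 2.77 elsewhere. The 8 fibroblast markers summed to at most 11.1 FPKM and the 5 endothelial markers to at most 0.596. Of the 8 immune cell markers Cd68 made up most of the sum, which ranged from 2.24 to 19.2 FPKM, while the leukocyte marker Ptprc had at most 2 reads in any library.

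Libraries made from poly(A) RNA hold few mRNAs that end at the stem-loop, so the annotated transcripts of the 82 genes (GENCODE release M21, assembly GRCm38) were searched on their sense strand for the stem-loop. A match was the stem arms GGCTCT and AGAGCC, or GGCCCT and AGGGCC, joined by the loop TTTN, forms that cannot both match at 1 place. A match was found in 41 of the 67 clustered genes and in 1 of the 15 replacement genes, H2afx. These counts are for the longest coding transcript of each gene. In any annotated transcript, 45 of all 21951 coding genes searched (0.205%) had a match, and 43 of the 45 were histone genes counted here. The sequences below, written as DNA, belong to genes whose levels are described later. Capitals mark the arms of the stem and lower case marks the loop.
Hist1h1c: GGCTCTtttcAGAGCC
Hist2h3c2: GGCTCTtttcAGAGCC
Hist3h2a: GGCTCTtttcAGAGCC
Hist1h4h: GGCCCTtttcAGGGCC
Hist1h4i: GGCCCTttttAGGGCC
H2afx: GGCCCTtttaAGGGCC
The annotated transcript ran on for 840 bases after the stem-loop in Hist1h1c, 377 in Hist2h3c2, 1643 in Hist3h2a, 46 in Hist1h4h, 330 in Hist1h4i and 822 in H2afx. The polyadenylation hexamer AATAAA was within the last 40 bases of the transcript in 14 of the 67 clustered genes, Hist1h1c, Hist3h2a, Hist2h2be and Hist1h4a among them. Hist1h2bc, Hist2h2be, Hist1h3g and Hist1h4a had no match to the stem-loop.

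Of the 82 genes, 26 had 0 reads in all 5 libraries (22 clustered and 4 replacement). A count of 0 allows up to 3 reads, which for a transcript of 1 kilobase equals between 0.157 and 0.191 FPKM depending on the library. A level of at least 1 FPKM in at least 1 library, the limit for the comparisons below, was reached by 32 genes: 22 clustered ones (1 of H1, 5 of H2A, 7 of H2B, 5 of H3 and 4 of H4) and 10 replacement ones. The other 50 were not compared. The number of clustered genes at or above 1 FPKM was 8 in each control, 10 with Myod1, 12 with Pparg and 20 with Setdb1 knockdown. No count over all genes in each library stands beside these, so nothing particular to histone genes is read from them.

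Summed over the 67 clustered genes, the level was 42.6 FPKM in the empty expression vector control and 54.5 in the empty knockdown vector control. It was 185 with Myod1, 168 with Pparg and 388 with Setdb1 knockdown. All 3 treated libraries lay above both controls. The ratio to the matching control was 4.34 for Myod1, 3.95 for Pparg and 7.11 for Setdb1, and the controls themselves differed by a ratio of 1.28. As a share of all reads these genes took 0.00449% (exact binomial 95% interval 0.00417 to 0.00482) and 0.00680% (0.00640 to 0.00721) in the expression and knockdown vector controls. The share was 0.0214% (0.0208 to 0.0221) with Myod1, 0.0218% (0.0212 to 0.0225) with Pparg and 0.0554% (0.0543 to 0.0565) with Setdb1 knockdown. Myod1 and Pparg were compared with the same control library.

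The sum leaned on few genes. Hist1h1c and Hist1h2bc together made 41.9% of it in the expression vector control, 53.5% in the knockdown vector control, 81.2% with Myod1, 57.7% with Pparg and 76.9% with Setdb1 knockdown. Without Hist1h1c, Hist1h2bc and the H4 gene Hist1h4h, which were singled out with their levels known, the other 64 clustered genes summed to 23.8 and 24.8 FPKM in the controls, 25.1 with Myod1, 48.4 with Pparg and 78.9 with Setdb1 knockdown. The ratios to the matching control were then 1.05 for Myod1, 2.03 for Pparg and 3.18 for Setdb1, and 1.04 between the controls. By reads at the deposited scaling, which longer transcripts weigh on more, these 64 genes gave ratios of 1.43 (1.24 to 1.65), 2.52 (2.22 to 2.86) and 3.53 (3.17 to 3.95) in the same order, and 1.19 (1.03 to 1.39) between the controls.

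The 15 replacement genes summed to 776 FPKM in the expression vector control, 745 in the knockdown vector control, 552 with Myod1, 685 with Pparg and 719 with Setdb1 knockdown. Their ratios to the matching control were 0.711, 0.883 and 0.966 in the order Myod1, Pparg, Setdb1. By share of reads the Setdb1 knockdown library (0.178%) was above its control (0.174%), so no direction is read from that comparison. As part of all histone FPKM, the clustered genes made 5.20% and 6.82% in the expression and knockdown vector controls, 25.1% with Myod1, 19.7% with Pparg and 35.0% with Setdb1 knockdown.

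By class, the 6 clustered H1 genes summed to 11.8 and 19.4 FPKM in the expression and knockdown vector controls, 106 with Myod1, 63.5 with Pparg and 213 with Setdb1 knockdown. The 18 H2B genes summed to 12.5 and 14.2 FPKM in the controls and 50.9, 43.3 and 109 in the treated libraries in the same order. The H4 sum was 10.3 and 13.1 in the controls, 18.9 with Myod1, 43.1 with Pparg and 35.0 with Setdb1 knockdown, so that the Pparg library was the highest. This order rests on Hist1h4h: without it, a choice made after the data were seen, the H4 genes summed to 9.41 and 12.6 FPKM in the controls, 9.34 with Myod1, 20.4 with Pparg and 24.1 with Setdb1 knockdown, the highest. H2A and H3 were the lowest classes, and H2A with Myod1 summed to 4.20 FPKM, with 4.84 and 4.44 in the controls. By reads the order differed: the H2A genes had 79 reads with Myod1 and 57 and 70 in the controls, a ratio to the matching control at the deposited scaling of 1.44 (1.01 to 2.06), so no direction is read from H2A with Myod1. H3 summed to 3.16 and 3.33 FPKM in the controls, 5.03 with Myod1, 9.94 with Pparg and 16.4 with Setdb1 knockdown. The plot of class sums shows these levels.

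**Figure D1:**
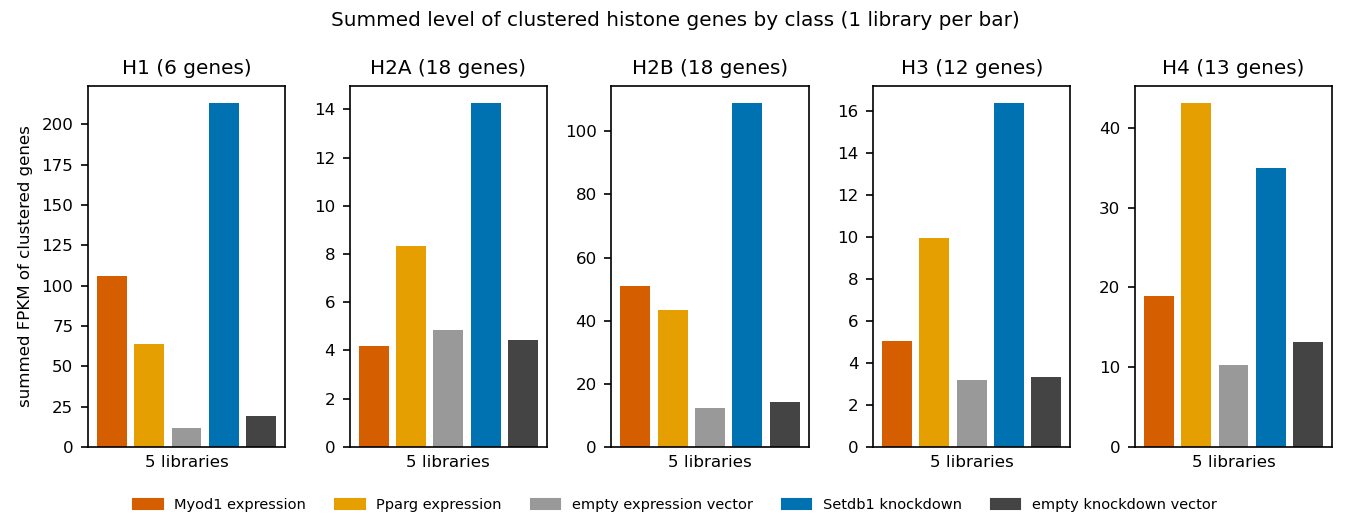
Summed FPKM of the clustered histone genes in each of the 5 classes (vertical axes from 0, each with its own scale), with 1 bar per library. The Setdb1 knockdown bar is the highest in H1, H2A, H2B and H3, and the Pparg bar (43.1 FPKM, or 20.4 without Hist1h4h) is the highest in H4.

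Hist1h1c, a linker histone gene of the Hist1 cluster (chromosome 13, 23738808 to 23740367, plus strand, ENSMUSG00000036181), had the highest mean level of all clustered genes. Its level was 11.3 FPKM in the expression vector control, 19.0 in the knockdown vector control, 105 with Myod1, 62.8 with Pparg and 211 with Setdb1 knockdown. All 3 treated libraries lay well above both controls, and the controls differed less, by a ratio of 1.67 (1.44 to 1.94). Against the matching control the ratio was 9.26 (95% interval from the reads 8.19 to 10.5) for Myod1, 5.54 (4.89 to 6.29) for Pparg and 11.1 (10.2 to 12.2) for Setdb1. On the log2(FPKM + 1) scale used for all genes, on which a gene is counted as changed at a difference of at least 1 (2-fold), it rose by 3.10, 2.37 and 3.41. It was the only H1 gene of the clusters to reach 1 FPKM. Hist1h1e, the next in level, stood between 0.317 and 0.868 FPKM, Hist1h1d between 0.105 and 0.633 and Hist1h1a at or under 0.219. Hist1h1e overlaps the H2B gene Hist1h2be on the same strand, and reads of the overlap cannot be assigned to either, so its level is uncertain.

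The 250 bases before the start of Hist1h1c are shown because histone promoters carry short shared elements. The sequence is from RefSeq (GRCm38.p6), chr13:23738557-23738806, plus strand. Capitals mark AAACACA, the core of the H1 box, 112 bases before the start, and CCAAT, 54 bases before it.
Hist1h1c: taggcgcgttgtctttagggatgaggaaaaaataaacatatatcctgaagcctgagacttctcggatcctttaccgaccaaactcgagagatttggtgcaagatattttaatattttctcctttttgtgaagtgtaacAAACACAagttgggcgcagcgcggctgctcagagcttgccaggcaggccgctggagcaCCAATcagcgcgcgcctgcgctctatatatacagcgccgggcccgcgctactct
The following motifs were searched on both strands in such windows, and they do not overlap each other: AAACACA, ATTTGCAT (the octamer), CCAAT and TATAAA. A window was matched for 76 of the 82 genes. AAACACA was in 5 of 6 clustered H1 windows and 9 of 62 clustered windows (14.5%), against 6.22% of all 27025 windows. The octamer was in 13 of 62 (against 1.61% of all windows), in 7 of 18 H2A and 6 of 16 H2B windows and in none of H1, H3 or H4. CCAAT was in 51 (82.3%, against 34.5%), but in 3 of 12 H4 windows, and TATAAA in 29 (46.8%, against 13.0%). Of the 14 replacement windows matched, 9 had CCAAT and 1 had each of the other motifs.

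Among the H2B genes Hist1h2bc led in every library. It stood at 6.51 FPKM in the expression vector control, 10.2 in the knockdown vector control, 45.2 with Myod1, 34.3 with Pparg and 86.5 with Setdb1 knockdown. This is the same order of libraries as for Hist1h1c. The ratio to the matching control was 6.94 (5.74 to 8.46) for Myod1, 5.27 (4.35 to 6.42) for Pparg and 8.49 (7.33 to 9.88) for Setdb1, and the log2 difference was 2.62, 2.23 and 2.97. Its neighbour Hist1h2ac, an H2A gene on the other strand, starts 251 bases away. Hist1h2ac stood at 0.0493 and 0.313 FPKM in the expression and knockdown vector controls, 0.384 with Myod1, 0.399 with Pparg and 1.59 with Setdb1 knockdown. The treated libraries were thus above both controls for both genes, at levels per length far apart. The log2 differences of Hist1h2ac (0.40, 0.42 and 0.98) did not reach the limit, and that with Setdb1 knockdown was 1.30 against the other control. The 250 bases before the RefSeq start of Hist1h2ac, which lies 11 bases upstream of the deposited one, hold most of the gap between the genes and reach the first bases of Hist1h2bc (RefSeq, GRCm38.p6, chr13:23683960-23684209, minus strand). Capitals mark, from the left, CCAAT on the opposite strand, the octamer on the opposite strand, CCAAT on the opposite strand, CCAAT, and TATAAA.
Hist1h2ac: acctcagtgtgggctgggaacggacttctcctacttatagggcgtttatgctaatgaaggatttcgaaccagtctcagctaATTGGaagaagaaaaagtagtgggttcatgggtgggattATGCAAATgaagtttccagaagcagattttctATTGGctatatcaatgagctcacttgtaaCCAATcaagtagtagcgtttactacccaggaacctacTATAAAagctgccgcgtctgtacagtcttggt

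Divergent pairs of this kind, with starts at most 1000 bases apart, numbered 12 for H2A with H2B and 1 for H2B with H3. In the Hist2 pair described next the partners differed in level. Hist2h2be, an H2B gene of the Hist2 cluster, stood at 0.958 and 1.69 FPKM in the expression and knockdown vector controls, 1.84 with Myod1, 3.33 with Pparg and 4.02 with Setdb1 knockdown. Its partner Hist2h2ac, 239 bases away, did not reach 1 FPKM in any library, with 0.978 at most. Hist2h2be rose with Pparg (log2 difference 1.14, ratio 3.47, 2.45 to 5.01) but that difference was 0.69 against the other control. Its log2 differences were 0.54 with Myod1 and 0.90 with Setdb1 knockdown, the latter 1.36 against the other control.

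The other H2B genes had fewer reads. Hist1h2bg stood at 1.49 FPKM in the expression vector control, 0 in the knockdown vector control, 1.03 with Myod1, 2.36 with Pparg and 5.68 with Setdb1 knockdown. It rose with Setdb1 knockdown, at least 19.6-fold against a floor of 3 reads in the control library, and the controls differed from each other by at least 5.12-fold on the same floor. Its log2 differences with Myod1 and Pparg were -0.29 and 0.44, or 1.02 and 1.75 against the other control. Hist1h2bj stood at 2.25 and 0.904 FPKM in the expression and knockdown vector controls, 0.549 with Myod1, 1.13 with Pparg and 6.65 with Setdb1 knockdown. It was the only clustered gene to fall with Myod1 (log2 difference -1.07, 4 reads against 17, but -0.30 against the other control) and it rose with Setdb1 knockdown (2.01, 57 reads against 7). Hist1h2be rose with Setdb1 knockdown (1.13, 130 reads against 13), but it overlaps Hist1h1e on the same strand, so that reads of the overlap cannot be assigned to either. Hist1h2bb and Hist1h2bh reached 1 FPKM too and stayed under the limit in every comparison.

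Among the H2A genes Hist3h2a of the Hist3 cluster had the highest mean level. It stood at 0.542 FPKM in the expression vector control, 0.669 in the knockdown vector control, 1.22 with Myod1, 3.23 with Pparg and 4.73 with Setdb1 knockdown. It rose with Pparg (log2 difference 1.46, ratio 5.97, 3.67 to 10.2) and with Setdb1 knockdown (1.78, ratio 7.08, 4.61 to 11.3), and the difference with Myod1 was 0.52. Hist3h2a overlaps Trim17 on the same strand, and Trim17 was at or under 0.607 FPKM in every library. Hist1h2ad had 0 reads in both controls, 4 with Myod1, 3 with Pparg and 36 with Setdb1 knockdown, where it reached 3.40 FPKM and was at least 10.8-fold higher than a floor of 3 reads. Hist1h2ae stood between 0.723 FPKM (Myod1) and 2.76 (Setdb1 knockdown) and stayed under the limit in every comparison. Hist1h2af was compared only through 7 reads in the expression vector control, it had at most 2 in each other library, and 94.0% of its stretches of 50 bases occur in other genes.

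**Figure D2:**
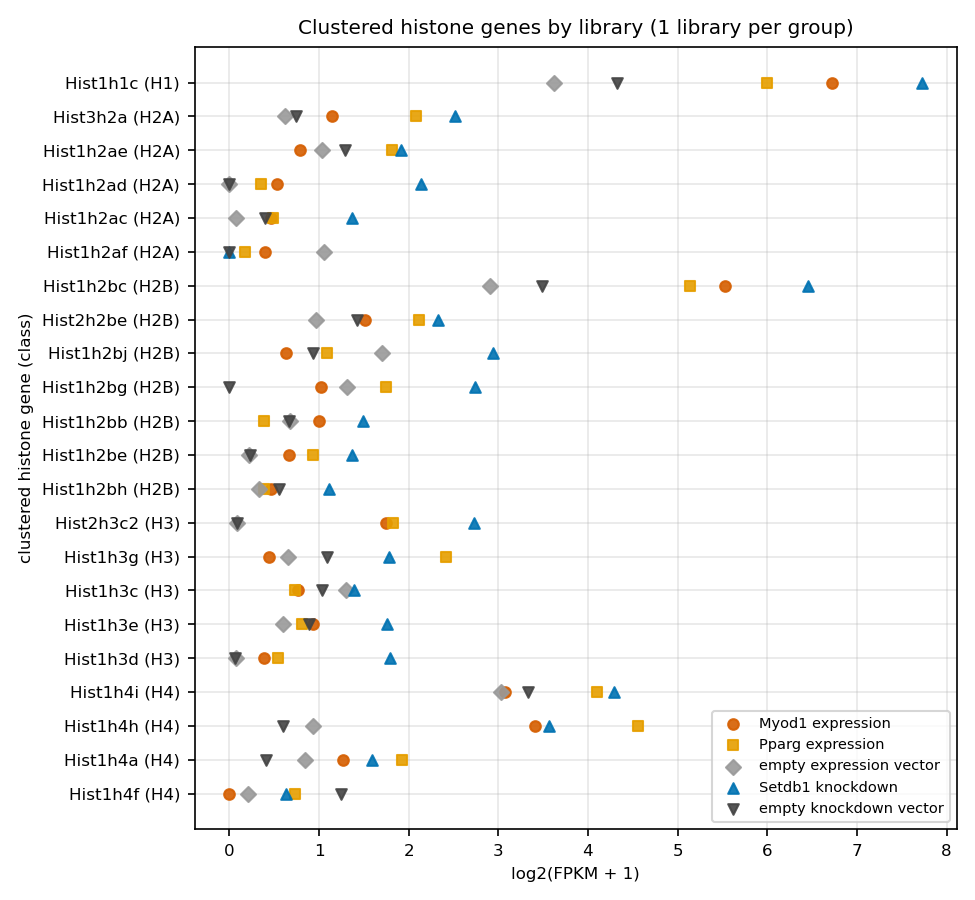
Levels of the 22 clustered histone genes with at least 1 FPKM in at least 1 library, as log2(FPKM + 1) on the horizontal axis, ordered by class and mean level, with 1 point per library. The Setdb1 knockdown point is the rightmost for 17 of the 22 genes, some of which, such as Hist1h2ad, are shown only because they reach 1 FPKM there, and Hist1h1c is the rightmost of the genes in each treated library.

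The H3 gene with the highest mean level was Hist2h3c2 of the Hist2 cluster. It had 1 read in each control (0.0600 and 0.0586 FPKM), 38 with Myod1 (2.37 FPKM), 50 with Pparg (2.56) and 106 with Setdb1 knockdown (5.62). Every treated library lay above both controls, and the ratio was 39.5 (6.67 to 1599.9) for Myod1, 42.6 (7.31 to 1716) for Pparg and 95.8 (16.8 to 3818) for Setdb1, with intervals made wide by the 1 control read. The log2 differences were 1.67, 1.75 and 2.64. Near-identical copies bear on this gene: 63.5% of its stretches of 50 bases occur in other genes. Hist1h3g stood at 0.577 and 1.13 FPKM in the expression and knockdown vector controls, 0.360 with Myod1, 4.33 with Pparg and 2.45 with Setdb1 knockdown, so that the Pparg library was the highest. It rose with Pparg (1.76, 44 reads against 5), and its difference with Setdb1 knockdown was 0.70, or 1.13 against the other control. Hist1h3d rose with Setdb1 knockdown (1.73, 57 reads against 1). Hist1h3c stayed under the limit in every comparison, and Hist1h3e did so against the matching controls (0.87 with Setdb1 knockdown, 1.16 against the other control).

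H4 is known as the core histone with the fewest variants. Hist1h4h had 7 reads in the expression vector control (0.912 FPKM) and 4 in the knockdown vector control (0.509), against 71 with Myod1 (9.61), 204 with Pparg (22.6) and 94 with Setdb1 knockdown (10.8). On the log2(FPKM + 1) scale its difference was the largest of the clustered genes compared with Pparg. The ratio was 10.5 (4.86 to 27.2) for Myod1, 24.8 (11.8 to 62.6) for Pparg and 21.2 (8.02 to 79.5) for Setdb1, and the log2 differences were 2.47, 3.63 and 2.97. Hist1h4i was the H4 gene with the highest level in the controls. It stood at 7.16 and 9.05 FPKM in the expression and knockdown vector controls, 7.44 with Myod1, 16.1 with Pparg and 18.5 with Setdb1 knockdown. The Myod1 library therefore lay between the controls for this gene. Its log2 difference was 0.05 with Myod1, 1.07 with Pparg (0.77 against the other control) and 0.96 with Setdb1 knockdown (1.26 against the other control). Hist1h4a rose with Pparg (1.08, 29 reads against 7) and with Setdb1 knockdown (1.17, 20 reads against 3, but 0.74 against the other control). Hist1h4f reached 1 FPKM through 9 reads in the knockdown vector control, and Hist1h4c stayed between 0.233 and 0.923 FPKM.

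Counted over the 32 genes compared, 6 rose and 2 fell with Myod1, 18.8% and 6.25% of them, while of all 12842 genes compared 14% rose and 7.55% fell. The share with Myod1 was thus near that of all genes, and the median log2 difference was 0.28, against 0.02 over all genes (0.39 with values under 3 reads set to 3 reads and no pseudocount). It also depended on the scaling. The authors' scaling and division of each library by its sum of FPKM differ by 0.28 on the log2 scale for the median of all genes in this comparison, and 4 histone genes rose and 4 fell after that division, with 9.63% and 14.8% of all genes. Against the knockdown vector control 6 rose and 3 fell, with 15.1% and 7.51% of all genes. With the libraries scaled to their 75th percentile, which shifts the median by 0.12, 6 rose and 4 fell, with 11.6% and 10.4% of all genes. Hist1h1c, Hist1h2bc, Hist1h4h and Hist2h3c2 rose under all 3 scalings.

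With Pparg 9 of the 32 rose (28.1%) and 0 fell, and of all genes 4.22% rose and 2.3% fell. All 9 were clustered genes: Hist1h1c, Hist1h2bc, Hist1h3g, Hist1h4a, Hist1h4h, Hist1h4i, Hist2h2be, Hist2h3c2 and Hist3h2a. The median log2 difference over the 32 was 0.45, against -0.02 over all genes, and it was 0.61 with the same floor. Against the knockdown vector control 8 rose and 0 fell with Pparg, with 5.52% and 2.41% of all genes. With Setdb1 knockdown 12 rose (37.5%) and 1 fell (3.13%), and of all genes 9.34% rose and 10.3% fell. Of the 12, 11 were clustered and 1 was the replacement linker histone H1f0, and the one that fell was the replacement gene H2afz. The median over the 32 was 0.88, against 0.00 over all genes, and it was 1.23 with the same floor. Against the expression vector control, 16 rose and 2 fell with Setdb1 knockdown, with 8.72% and 11% of all genes.

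Between the controls 1 of the 32 was higher in the knockdown vector library and 3 were lower, with 1.23% and 1.44% of all genes. The higher one was Hist1h4f, and the lower ones were H1f0, Hist1h2bg and Hist1h2af. The limit of 1 FPKM in any library lets a gene in through the library where it is high. With a mean of at least 1 FPKM over the 5 libraries in its place, which 22 histone genes had, 5 rose and 2 fell with Myod1, 9 rose and 0 fell with Pparg and 9 rose and 1 fell with Setdb1 knockdown. Of the 11218 genes with such a mean, 12.8% rose and 8% fell with Myod1, 3.87% and 2.18% with Pparg and 9.18% and 11.2% with Setdb1 knockdown.

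**Figure D3:**
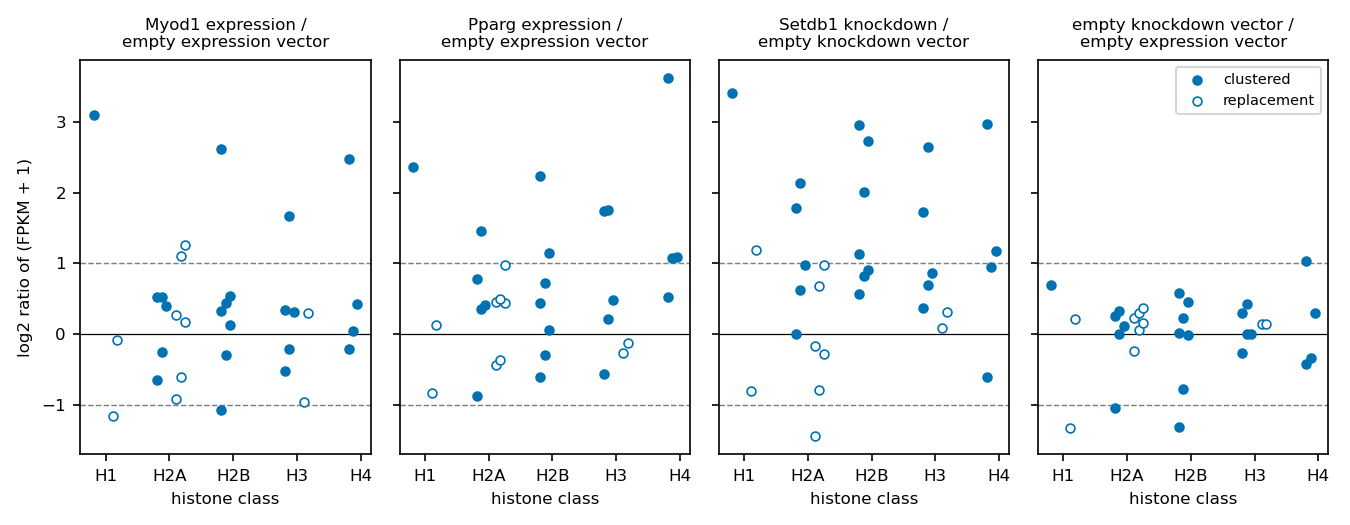
Log2 ratios of FPKM + 1 (vertical axis) of the 32 histone genes compared, by histone class, in the 3 comparisons with the matching control and between the controls, with filled points for clustered and open points for replacement genes. Dashed lines mark 2-fold. Clustered points reach 3.10 with Myod1, 3.63 with Pparg and 3.41 with Setdb1 knockdown. The highest clustered point between the controls is at 1.04.

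Across libraries, the Setdb1 knockdown library was the highest of the 5 for 11 of the 14 clustered genes with a mean of at least 1 FPKM and the Pparg library for the other 3. Of all 11218 genes with such a mean, 26% were highest in the Setdb1 knockdown library and 11.4% in the Pparg library. Over the 45 clustered genes with any read, the Setdb1 knockdown library was the highest for 31, the Pparg library for 7, the Myod1 library for 1 and each control for 3, and of all 23824 genes with any read 24.3% were highest with Setdb1 knockdown. The Setdb1 knockdown library was also the highest for 17 of the 22 genes compared, a count that the limit of 1 FPKM partly sets, since genes such as Hist1h2ad and Hist1h3d reached that limit only there. Of all genes compared, 25.9% were highest in the Setdb1 knockdown library, 12% in the Pparg library and 28.7% in the Myod1 library. All 3 treated libraries lay above both controls for 11 of the 22 clustered genes compared, a set under the same limit, as for 16.5% of all genes, and all 3 lay below both controls for 0, as for 18.7% of all genes. The 11 were Hist1h1c, Hist1h2ac, Hist1h2ad, Hist1h2bc, Hist1h2be, Hist1h3d, Hist1h4a, Hist1h4h, Hist2h2be, Hist2h3c2 and Hist3h2a, and they include all 5 classes and 3 of the clusters. Hist1h2ad, with 0 reads in the controls, had 3 with Pparg, no more than a count of 0 allows, so its place above the controls is not shown there. With Myod1, Hist1h2ac had 15 reads and Hist2h2be 76, against 13 and 74 in the knockdown vector control. Hist1h4a had 12 with Myod1 against 7 in the expression vector control. The intervals from the reads overlap in each of these pairs, and in some others of the 11. Hist4h4, the 1 gene of the Hist4 cluster, had at most 6 reads.

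The replacement linker histone gene H1f0, whose product accumulates in many differentiated cells, stood at 163 FPKM in the expression vector control, 63.9 in the knockdown vector control, 72.3 with Myod1, 91.1 with Pparg and 147 with Setdb1 knockdown. The controls themselves lay more than 2-fold apart (log2 difference -1.33), and the treated libraries lay between them. Against the matching controls it fell with Myod1 (-1.16, ratio 0.444, 0.423 to 0.466) and rose with Setdb1 knockdown (1.19, ratio 2.30, 2.19 to 2.42). Against the other control these differences were 0.18 and -0.15, and with Pparg the difference was -0.83 against the matching and 0.50 against the other control, so no direction held across the controls. H1fx, another replacement linker histone gene, stood between 0.355 FPKM (Setdb1 knockdown) and 1.38 (knockdown vector control) and stayed under the limit, with a log2 difference of -0.81 with Setdb1 knockdown from 8 reads against 28. H1fnt and H2afb1 to H2afb3, known from male germ cells, had 0 reads in all libraries, and H1foo, known from oocytes, had at most 2.

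H2afz and H2afv encode the forms of H2A.Z, a variant found at many gene starts. Against the matching controls at the deposited scaling, in no comparison did both pass the limit. H2afz stood at 278 and 309 FPKM in the expression and knockdown vector controls, 147 with Myod1, 205 with Pparg and 113 with Setdb1 knockdown, below both controls in all 3 treated libraries. It fell with Setdb1 knockdown (log2 difference -1.45, ratio 0.365, 0.351 to 0.379). With Myod1 the difference was -0.92, and it was -1.07 against the other control, -1.31 after division by the sum of FPKM and -1.10 at the 75th percentile. With Pparg it was -0.44. Of the stretches of 50 bases of H2afz, 69.6% occur in other genes. H2afv stood at 33.2 and 28.0 FPKM in the expression and knockdown vector controls, 80.7 with Myod1, 45.4 with Pparg and 45.4 with Setdb1 knockdown, above both controls in all 3. It rose with Myod1 (1.25, ratio 2.43, 2.24 to 2.63). That difference was 1.49 against the other control and 0.87 after division by the sum of FPKM. With Pparg the difference was 0.44 and with Setdb1 knockdown 0.68. With Myod1, H2afv rose and H2afz fell past the limit against the other control and at the 75th percentile.

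H2afx encodes the variant that is phosphorylated at DNA breaks. It stood at 53.8 and 70.0 FPKM in the expression and knockdown vector controls, 60.6 with Myod1, 107 with Pparg and 62.1 with Setdb1 knockdown. Only the Pparg library lay outside the range of the controls, with a difference of 0.98 that is 1.09 after division by the sum of FPKM and 0.61 against the other control. H2afj stood at 47.4 and 49.5 FPKM in the expression and knockdown vector controls, 57.6 with Myod1, 67.3 with Pparg and 98.2 with Setdb1 knockdown, where the difference was 0.97, and 1.03 against the other control. H2afy, a gene for macroH2A, a variant with a large added domain, stood at 19.0 and 23.5 FPKM in the expression and knockdown vector controls, 12.1 with Myod1, 14.4 with Pparg and 13.1 with Setdb1 knockdown. It was lower in all 3 treated libraries than in both controls but stayed under the limit (-0.60, -0.37 and -0.79). H2afy2, the other macroH2A gene, rose with Myod1 (1.11, 48 reads against 4), and that difference was 0.88 against the other control and 0.92 after division by the sum of FPKM. It overlaps Aifm2 on the other strand, which stood at 11.1 FPKM with Myod1 and 6.06 and 4.08 in the expression and knockdown vector controls, and the part of its reads in H2afy2 was not tested.

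H3f3a and H3f3b encode the same replacement H3 protein, deposited outside S phase. H3f3b stood at 143 and 158 FPKM in the expression and knockdown vector controls, 73.4 with Myod1, 119 with Pparg and 197 with Setdb1 knockdown. It was lowest with Myod1, at a log2 difference of -0.96, which was -1.34 after division by the sum of FPKM, -1.14 at the 75th percentile and -1.10 against the other control. With Pparg the difference was -0.27 and with Setdb1 knockdown 0.31. H3f3a varied least, from 33.7 FPKM (Pparg) to 45.6 (Myod1), with differences of 0.30, -0.13 and 0.09. It has near-identical processed copies in the table, of which H3f3a-ps1 stood between 8.06 and 19.5 FPKM, so that its reads are uncertain.

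**Figure D4:**
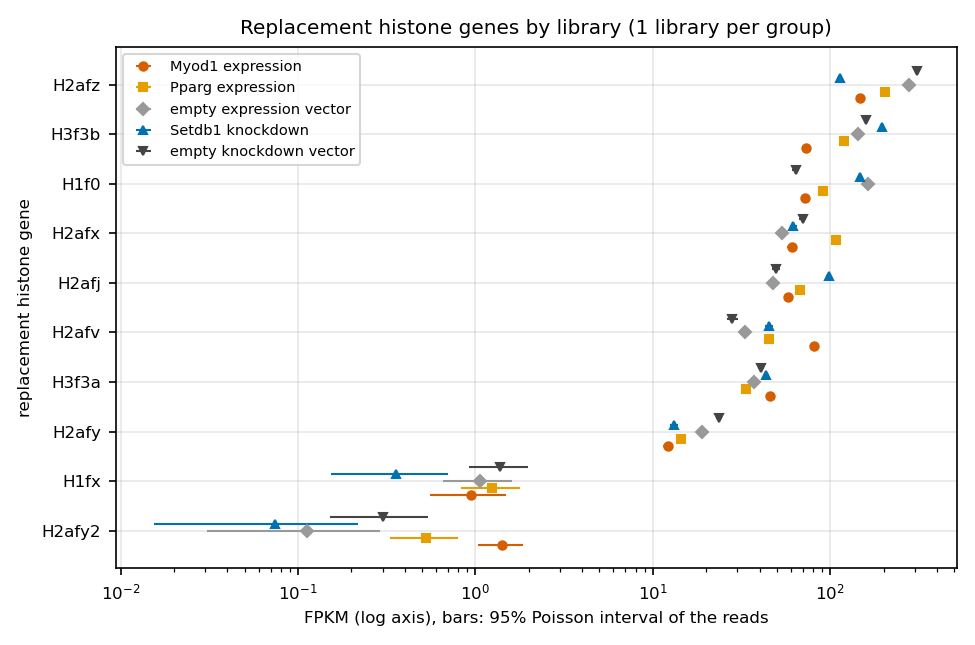
Levels of the 10 replacement histone genes with at least 1 FPKM in at least 1 library, on a log axis of FPKM, with 1 point per library and bars for the exact Poisson 95% interval of the reads. H2afz points of the treated libraries lie left of both controls, H2afv points lie right of them, and the H1f0 controls (163 and 63.9 FPKM) enclose the treated libraries.

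The clustered genes share much sequence. Of the 67, 34 have more than 50% of their stretches of 50 bases in at least 1 other gene. Of these 34, 6 reached 1 FPKM, 16 had 0 reads in all libraries and the highest level was 6.65 FPKM. Of the 33 with less shared sequence, 16 reached 1 FPKM, 6 had 0 reads and the highest level was 211 FPKM. How the authors treated reads that fit several places is not given in the sources used here, and its part in the 0 counts was not tested. Among the 25 genes compared with at most 50% shared, 5 rose and 1 fell with Myod1, 7 rose and 0 fell with Pparg and 9 rose and 0 fell with Setdb1 knockdown. The shares of all genes are those given above: 14% and 7.55% with Myod1, 4.22% and 2.3% with Pparg and 9.34% and 10.3% with Setdb1 knockdown.

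Levels were also set beside the annotated ends. Of the 20 clustered genes whose transcript ends within 100 bases of the stem-loop, 6 reached 1 FPKM, and the median of their highest level over the 5 libraries was 0.787 FPKM. Of the 21 whose transcript runs on for longer, 11 reached 1 FPKM and the median was 1.16 FPKM. Of the 26 without a match, 5 reached 1 FPKM and 15 had 0 reads in all libraries. These sets differ in shared sequence too, with a median of 63.1%, 22.1% and 73.7% in the same order. Of the 14 clustered genes with AATAAA within the last 40 bases, 5 reached 1 FPKM and the median was 0.232 FPKM, while of the 53 without it 17 did and the median was 0.633 FPKM.

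**Figure D5:**
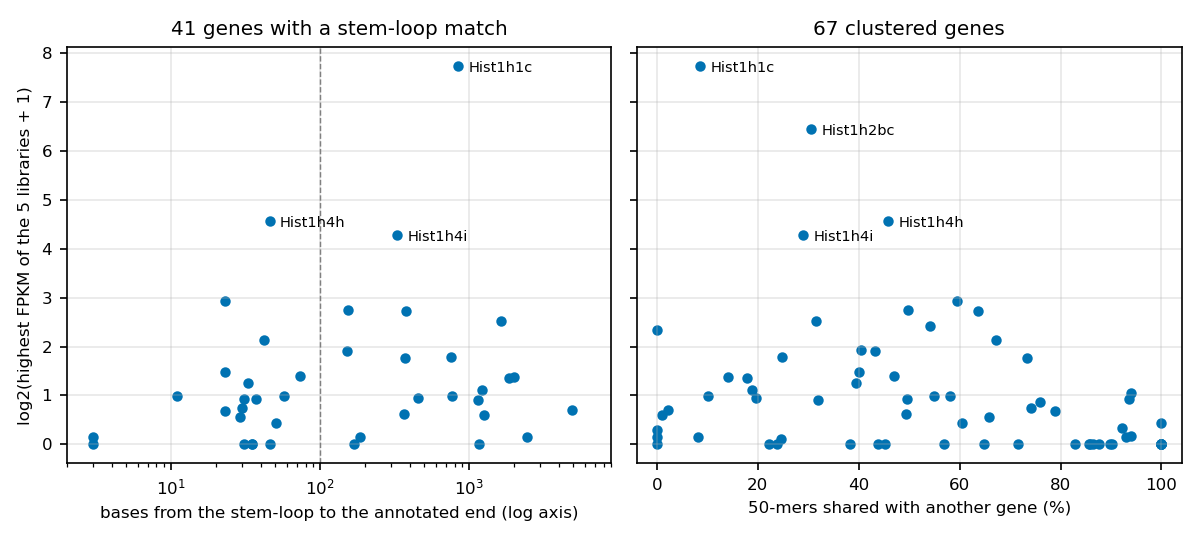
Highest level of each clustered histone gene over the 5 libraries, as log2(FPKM + 1), against the distance from the stem-loop to the annotated transcript end (left, log axis, 41 genes with a match, dashed line at 100 bases) and against the percentage of 50-base stretches shared with another gene (right, 67 genes). Hist1h1c, with 840 bases after its stem-loop and 8.54% shared, is the highest point in both, and no gene with more than 50% shared exceeds 6.65 FPKM.

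RNAs that lack a poly(A) tail were measured as well, since it is not given in the sources used here whether poly(A) RNA was selected. A list of 21 such symbols was used, of which 20 were found in the deposited data and Rn7sk, Rnu12 and Terc were compared. The list summed to 2.40 FPKM in the expression vector control, 0.793 in the knockdown vector control, 3.80 with Myod1, 4.16 with Pparg and 22.1 with Setdb1 knockdown. Rn7sk, a small nuclear RNA that holds back transcription elongation, had 13 and 3 reads in the expression and knockdown vector controls, 19 with Myod1, 24 with Pparg and 114 with Setdb1 knockdown. Rn7sk rose with Setdb1 knockdown (log2 difference 3.67, or 2.53 against the other control) and was lower in the knockdown than in the expression vector control (-1.14). Its differences with Myod1 and Pparg were 0.45 and 0.49, or 1.59 and 1.63 against the other control. Rnu12 and Terc were compared only through the Setdb1 knockdown library (5 and 9 reads, and 0 in its control). Their part in the histone result was not tested.

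Of the genes for histone mRNA transcription and end processing, 26 were compared. With Myod1, 3 rose and 1 fell, with Pparg 0 rose and 1 fell, and with Setdb1 knockdown 1 rose and 6 fell (medians -0.39, -0.14 and -0.34). Of all genes, 14% rose and 7.55% fell with Myod1, 4.22% and 2.3% with Pparg and 9.34% and 10.3% with Setdb1 knockdown, shares that also stand beside the lists that follow. Slbp, the stem-loop binding protein, stood at 6.56 and 9.54 FPKM in the expression and knockdown vector controls, 6.05 with Myod1, 9.14 with Pparg and 4.46 with Setdb1 knockdown, with log2 differences of -0.10, 0.42 and -0.95. Npat, the coactivator of histone genes in S phase, stood at 3.43 and 3.68 FPKM in the controls, 2.04 with Myod1, 3.06 with Pparg and 1.82 with Setdb1 knockdown. Casp8ap2, a factor of histone mRNA processing, stood at 2.57 and 1.78 FPKM in the controls and fell with Myod1 (-1.33, or -0.97 against the other control), with -0.32 with Pparg and -0.99 with Setdb1 knockdown (-1.35 against the other control). The other members with the largest differences were E2f2 (1.33) and Lsm1 (1.30) with Myod1, Cdk2 (-1.23) with Pparg, and E2f1 (-2.09), Ccne2 (-1.65) and Eri1 (-1.62) with Setdb1 knockdown.

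Of 31 histone chaperone and deposition genes, 11 fell with Myod1, 0 with Pparg and 17 with Setdb1 knockdown, and 0 rose in any of these (medians -0.67, -0.20 and -1.17). Among them, Asf1b, a chaperone of new H3 and H4, stood at 27.7 FPKM in the knockdown vector control and 6.06 after Setdb1 knockdown (-2.02), and Atrx, part of a complex that deposits the replacement H3 at repeats, stood at 4.93 FPKM in the expression vector control and 0.684 with Myod1 (-1.82). Of 46 S phase genes, 22 fell with Myod1, 0 with Pparg and 39 with Setdb1 knockdown, and 0 rose (medians -0.98, -0.17 and -1.87). Rrm2, a subunit of the enzyme that makes deoxyribonucleotides, stood at 131 and 192 FPKM in the expression and knockdown vector controls, 70.1 with Myod1, 147 with Pparg and 27.1 with Setdb1 knockdown. With Setdb1 knockdown, then, 39 of the 46 S phase genes fell and 0 rose. Of the 22 clustered histone genes compared, 11 rose and 0 fell. Among these 11, Hist1h2ad, Hist1h2be and Hist1h3d entered the comparison only through the Setdb1 knockdown library. With a mean of at least 1 FPKM as the limit, 9 of 22 histone genes of both kinds rose and 1 fell. Of all genes with such a mean, 9.18% rose and 11.2% fell. Between the controls 0 of the genes in the lists for end processing, chaperones and S phase changed, where of all genes 1.23% were higher and 1.44% lower.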

How the data were processed

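RNA from 5 B16F10 cultures was sequenced, 1 library per group. Per the labels' protocols, RNA was isolated by TRIzol and turned into libraries by a NEBNext Ultra RNA kit. The submitters' processing notes name CASAVA, HISAT2, featureCounts 1.5.0-p3 and the build GRCm38, without role or order. Whether poly(A) RNA was selected, and how strand and shared reads were treated, is not given in the sources used here. Their values are FPKM as deposited, in a table that also gives positions, lengths and biotypes per the file headers.

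FPKM times gene length gave whole multiples of 1 step for 100% of the values above 0 in each library (tolerance 0.01). The step gave the reads behind each value, from 16214802 to 18300670 per library. Genes with at least 1 FPKM in at least 1 library (12842) were compared as the log2 ratio of FPKM + 1, and a gene changed where this was 1 or more in size. The pseudocount of 1 understates the change of low genes. Each treatment was compared with its own empty vector control, and the controls with each other. Intervals (95%) for an FPKM value are exact Poisson, for a share exact binomial (Clopper-Pearson), and for a ratio derived from the exact binomial one. No count model was fitted, since no group has a replicate. A ratio against a control with 0 reads used a floor of 3 reads.

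Genes named are the 3 marker genes Hist1h1c, Hist1h2bc and Hist1h4h, the 4 with the highest mean in each clustered class, all replacement genes compared, the 5 highest and 5 lowest log2 ratios per comparison, and per list up to 3 other genes with the largest ratios plus Slbp, Npat and Casp8ap2. Other names were added after their values were seen, as in counts of genes that rose or fell, divergent partners and overlapping genes. The members and the 11 gene lists were chosen with earlier results of these data known. The germ cell histone list had 0 genes compared. The lists for end processing, chaperones and S phase share members. Positions of all 82 genes equal those of GENCODE M21 (98.3% of all shared identifiers). Alternatives were another pseudocount, filters, limits, scalings, the other control and a floor of 3 reads. Removal of the 3 marker genes from the clustered sum, removal of Hist1h4h from the H4 sum and a limit on shared sequence were added after the data were seen. Python 3.11.15, numpy 2.4.6, pandas 2.3.3 and scipy 1.17.1 were used.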

Additional observations from a re-analysis of the deposited data

How the results depend on the processing

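With 1 library per group no replicate could be left out, and no paired analysis was possible because each group has 1 library. Depth limits the clustered genes other than Hist1h1c and Hist1h2bc, many of which rest on fewer than 50 reads. The limit in the counts that follow was that of each setting. At the 4-fold limit, a value between 2-fold and 4-fold counted as no longer past it. For the genes named, 535 values stayed on their side of the limit, 25 newly passed it and 17 no longer did. Another 8 under it changed sign by a wider margin. Values near 0 change sign more often. The 2 past the limit that changed sign are H1f0 with Myod1 (0.18 against the other control, from -1.16) and with Setdb1 knockdown (-0.15, from 1.19).

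Counts of histone genes that rose changed most with the low values. With a pseudocount of 0.1 they were 11 (Myod1), 16 (Pparg), 19 (Setdb1) and 2 (between controls), and those that fell 4, 2, 4 and 5, while of all genes 18.3%, 8.81%, 15% and 3.26% rose and 13.2%, 4.66%, 16.3% and 4.15% fell. With values under 3 reads set to 3 reads they were 10, 14, 19 and 3 (all genes 18.1%, 8.48%, 15% and 2.68%), and those that fell 4, 2, 4 and 5 (13.2%, 4.11%, 16.3% and 4.13%). At a 4-fold limit 3, 3, 7 and 0 rose (all genes 4.35%, 0.709%, 0.919% and 0.14%), and 0 fell in each (all genes 0.382%, 0.179%, 1.5% and 0.14%). With a mean of at least 1 FPKM 0 were higher and 2 lower between the controls (all genes 0.883% and 1.3%). With Myod1 4 fell after division by the sum of FPKM and 4 at the 75th percentile (all genes 14.8% and 10.4%). With at most 50% shared sequence 1 fell with Myod1 and 0 with Setdb1 knockdown, and 2 fell with Setdb1 knockdown against the other control.

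The ratio of clustered sums for Myod1 was 3.31 after division by the sum of FPKM, 3.81 at the 75th percentile, 3.39 against the other control and 1.05 without the 3 marker genes (1.43 by reads). For Pparg it was 3.08 against the other control and 2.03 without those genes, and for Setdb1 6.67 at the 75th percentile, 9.10 against the other control and 3.18 without those genes. Between the controls it was 1.04 without them. Where a count fell with fewer genes tested or a stricter limit, the construction of the alternative shows the cause. For the others the cause was not tested.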

Other observations

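Genes with histone-like names outside the selection, chosen after their values were seen, are given as values. Hils1, a linker histone-like gene known from sperm development, had 19 reads with Myod1 (1.40 FPKM), 2 with Pparg, 1 in the knockdown vector control and 0 in the other libraries. H3f3a-ps1, a processed copy of H3f3a, stood at 19.5 FPKM with Myod1, 11.4 with Pparg, 17.1 with Setdb1 knockdown, and 8.06 and 13.3 in the expression and knockdown vector controls. H3f3c, another copy, stood at 7.27 with Myod1, 3.43 with Pparg, 6.05 with Setdb1 knockdown, and 4.47 and 2.47 in the same controls. Hist3h2bb-ps had between 2 and 9 reads in each library.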
